A study of Homo sapiens with 4 samples.

Results

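The genes described here read higher in both HCT116 clones that carry the CST5 transgene than in both control lines. A gene was taken as a member if its log2 value exceeded the 40th percentile of its array on at least 2 of the 4 arrays, and if the lower of the 2 clones lay at least 0.585 above the higher of the 2 controls, which is a 1.5-fold distance on the log2 scale. Of 24916 genes in the table, 15131 passed the filter on dim signal and 65 of these met the distance, or 0.430%. Leaving out 2 genes that are not described here gave 63 members. The members were chosen by the clone-to-control differences themselves, so the sizes given below describe the set and were not tested. A mirror rule for genes lower in both clones gave 56 genes, or 0.370%.

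HCT116 is an established human cell line from a colon adenocarcinoma. The 4 lines were CST5 clone 9 and CST5 clone 20, labelled as CST5 transfections, and mock-transfected and un-transfected HCT116 cells, with 1 array each. The level of cystatin D protein in these lines was not measured here. Each CST5 line is 1 clone, so a change that goes with the transgene and a change that goes with the selection of a clone cannot be told apart. With 1 array per line, a difference between lines and a difference between arrays cannot be told apart either.

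Cystatin D, the product of CST5, is a small secreted protein that blocks cysteine proteases of the cathepsin family by filling their active site. It was first known from saliva and tears. In colon carcinoma cells its gene is induced by the active form of vitamin D, and the title of the study places the protein also in the nucleus and links it to the control of gene expression. The comparison of clones with controls asks which genes differ in cells transfected with CST5.

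The table names genes by Ensembl identifier, and 0 of its identifiers could be paired with a symbol through the reference gene table used here. The functions of the members, the level of CST5 itself, the identity of the cells by their markers and the promoters of the members were therefore not analysed here, and whether CST5 is itself among the 63 members was not checked. All 63 members have an Ensembl identifier and can be looked up by it. Here 2 members are given by identifier and the others described by rank. Rank 1 has the widest distance between the lower clone and the higher control.

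ENSG00000170367, rank 1, had log2 values of 6.48 in clone 9, 7.32 in clone 20, 4.20 in un-transfected cells and 4.09 in mock. The lower clone thus lay 2.29 above the higher control, and the clones lay 0.84 apart. Its level was 6.90 ± 0.59 (SD, n = 2) in the clones and 4.14 ± 0.08 (SD, n = 2) in the controls, a difference of 2.76 or 6.77-fold. This was the only member whose smallest difference exceeded 3-fold. Whether this gene is the CST5 transgene itself was not checked, because the table does not pair its identifier with a symbol, so its values cannot be read as the response of another gene.

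ENSG00000083307, rank 2, read 6.26 in clone 9 and 6.01 in clone 20, against 3.56 in un-transfected cells and 4.49 in mock. Here the clones were close and the controls differed, with mock 0.93 above un-transfected cells. The mean level was 6.13 ± 0.18 (SD, n = 2) in the clones and 4.03 ± 0.66 (SD, n = 2) in the controls, a difference of 2.11 or 4.31-fold, and it ranged from 1.52 against the higher control to 2.70 against the lower one. Of the 63 members, this gene had the widest excess of mock over un-transfected cells.

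Distances fell off quickly below these genes. The smallest difference was at least 2-fold in 13 members, where 0.0991% of the tested genes met this bound with the genes left out counted in, and between 1.5-fold and 2-fold in 50. Its median was 0.76 on the log2 scale, or 1.69-fold, with 25 members between 0.585 and 0.7, 22 between 0.7 and 0.85, and 3 between 0.85 and 1. A further 9 members lay between 1 and 1.3, and 4 at 1.3 or above. The difference of the group means had a median of 1.0 and ran from 0.65 to 2.76. It reached 2-fold in 31 members and 4-fold in 4, which held ranks 1, 2, 5 and 12.

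**Figure D1:**
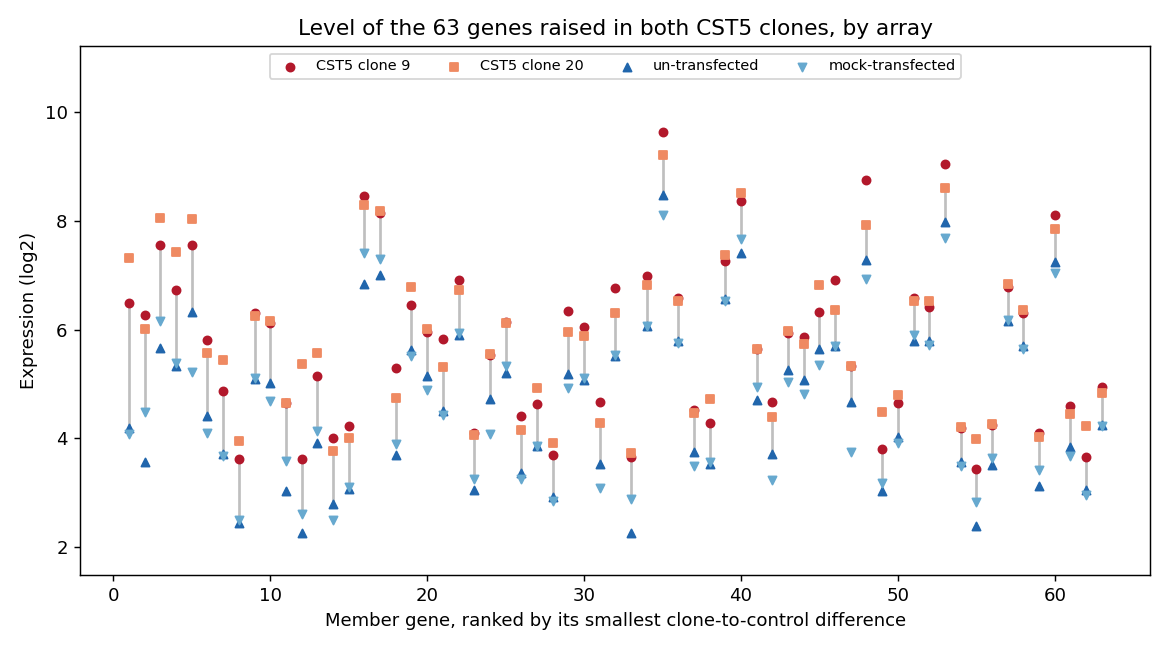
Expression (log2) of the 63 members on the 4 arrays, 1 point per array, with genes ordered by the distance between the lower clone and the higher control, drawn as a grey line. The distance is 2.29 at rank 1 and 0.60 at rank 63, while the levels themselves run from 2.26 to 9.63 with no order by rank.

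Ranks 3 and 4 were high in both clones and unlike in their spread. Rank 3 read 7.55 in clone 9, 8.04 in clone 20, 5.65 in un-transfected cells and 6.17 in mock, so each pair of lines lay about as far apart as the other, 0.48 for the clones and 0.51 for the controls. Rank 4 read 6.72 and 7.42 in clones 9 and 20, and 5.34 and 5.39 in un-transfected cells and mock. Its controls were nearly level and its clones differed by 0.70, with clone 20 higher.

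A few members owed much of their mean difference to 1 line. Rank 12 read 3.62 in clone 9 and 5.37 in clone 20, against 2.27 in un-transfected cells and 2.61 in mock. Its clones lay 1.74 apart, or 3.35-fold, the widest such gap among the members, and clone 20 carried most of its mean difference of 2.06. Rank 5 read 7.56 and 8.03 in clones 9 and 20, 6.31 in un-transfected cells and 5.23 in mock. Its controls lay 2.12-fold apart, the widest among the members, so its distance was 2.80 from the lower control to the higher clone and 1.25 at the narrowest. Rank 48 was the member in which clone 9 stood furthest above clone 20, at 8.74 and 7.91, against 7.27 in un-transfected cells and 6.92 in mock.

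Other members had all 4 lines in 2 tight pairs. Rank 36 read 6.58 in clone 9 and 6.53 in clone 20, and 5.80 and 5.75 in un-transfected cells and mock. Neither pair was over 1.04-fold apart, while the group means differed 1.71-fold. Rank 9 read 6.30 and 6.24 in the clones, and 5.09 and 5.11 in un-transfected cells and mock, a mean difference of 1.17. The clones lay further apart than the smallest clone-to-control difference in 3 members, and the controls in 1, counts that the rule keeps low by requiring a wide difference.

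Neither clone was the higher one in general. Clone 20 exceeded clone 9 in 32 members and clone 9 exceeded clone 20 in 31, against 50.3% of all tested genes with clone 20 higher. The median of clone 20 minus clone 9 was 0.0025 over the members and 0.0018 over all tested genes. Without regard to sign, the gap between the clones had a median of 0.21 over the members and 0.16 over the tested genes. The clones were at least 1.5-fold apart in 5 members, 4 with clone 20 higher, where 5.84% of the tested genes were as far apart. They were at least 2-fold apart in 1 member, rank 12, against 1.21% of the tested genes.

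**Figure D2:**
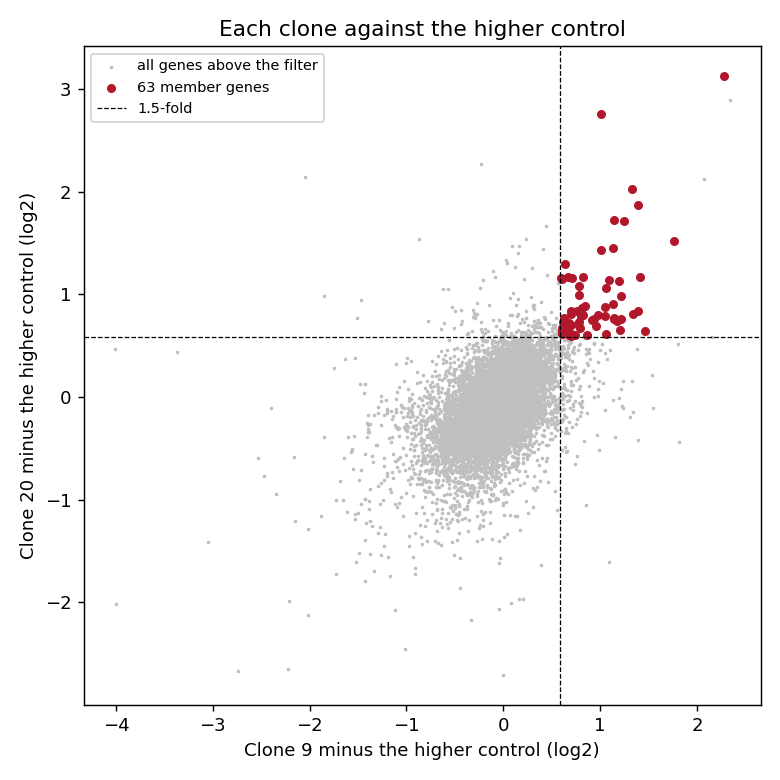
Each point is a gene above the filter, with its log2 difference from the higher control in clone 9 (x axis) and in clone 20 (y axis), members in red and the 1.5-fold bounds dashed. The members fill the upper right field by the rule that chose them, the 2 grey points in that field are the genes left out, and both axes share the control arrays.

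The controls were also split evenly. Un-transfected cells exceeded mock in 34 members and mock exceeded un-transfected cells in 29, with a median of mock minus un-transfected of -0.03 over the members and 0.0036 over all tested genes. Mock read higher in 50.9% of the tested genes. The unsigned gap between the controls had a median of 0.20 over the members, against 0.11 over the tested genes. In 5 members the controls were at least 1.5-fold apart, 2 with mock higher and 3 with un-transfected cells higher, against 1.69% of the tested genes. They were at least 2-fold apart in 1, rank 5, against 0.390% of the tested genes. The rule keeps both controls below both clones and sets no limit on the gap between the controls in either direction.

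**Figure D3:**
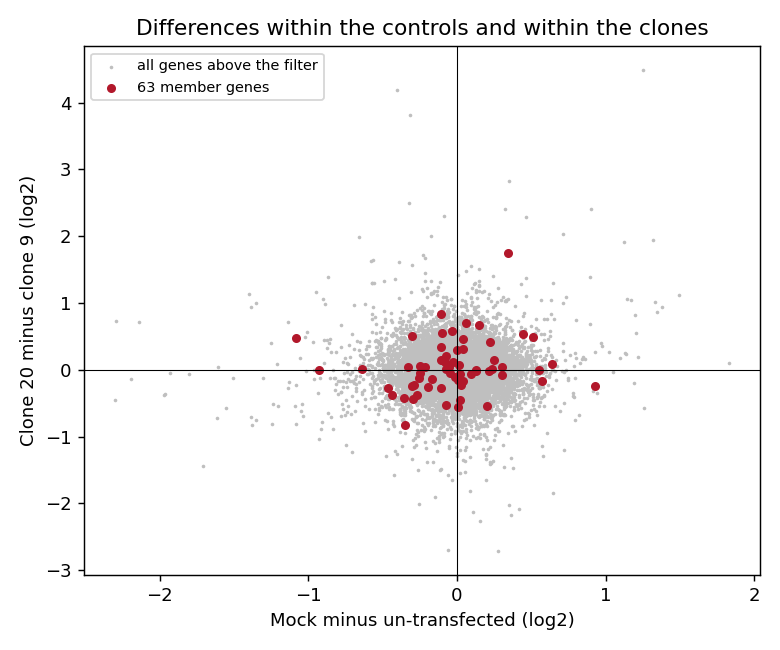
Each point is a gene above the filter, with mock minus un-transfected cells (x axis) and clone 20 minus clone 9 (y axis), both on the log2 scale, and members in red. Members lie on all sides of the origin, and the outlying ones are rank 12 at the top, rank 5 at the left and rank 2 at the right.

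All orders of the 4 lines that the rule allows occurred in like numbers. Clone 9 was highest and un-transfected cells lowest in 15 members, and clone 9 was highest and mock lowest in 16. Clone 20 was highest with un-transfected cells lowest in 14 and with mock lowest in 18. The median difference was 0.98 for clone 9 against un-transfected cells and 1.01 for clone 9 against mock. For clone 20 these medians were 0.91 and 0.94. These comparisons share arrays, and their nearness is no separate evidence.

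The members spanned much of the range of the arrays. In clone 9 their levels ran from 3.45 through a median of 5.86 to 9.63, and in clone 20 from 3.74 through 5.74 to 9.21. In un-transfected cells the lowest, median and highest values were 2.26, 4.71 and 8.46, and in mock they were 2.50, 4.49 and 8.10. The median over all tested genes was 5.71 in both clones, 5.73 in un-transfected cells and 5.72 in mock. The members as a set stood near the middle of the tested genes in the clones and below it in the controls. A lower place in the controls than in the clones follows from the rule and is no separate result. The brightest member, rank 35, read 9.63 and 9.21 in clones 9 and 20, and 8.46 and 8.10 in un-transfected cells and mock.

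Many members were dim in the controls. The mean percentile of the controls was under 50 in 26 members, between 50 and 75 in 28 and at 75 or over in 9. The same shares of all tested genes were 17.8%, 41.1% and 41.1%, against 41.3%, 44.4% and 14.3% of the members. The rule sets both controls under both clones, so lower control percentiles follow in part from the choice of members. The mean percentile of the clones was at 75 or over in 44.4% of the members and 41.2% of the tested genes. It was at 90 or over in 14.3% and 16.3%. In 10 members neither control exceeded the 40th percentile of its array, and these passed the filter through the clones alone. In 5 more members only 1 control exceeded it. The other 48 members, or 76.2%, exceeded the 40th percentile on all 4 arrays, against 94.4% of the tested genes. Signal over background was not known, so whether the folds of the dim members understate or overstate the change was not tested. Rank 12 is among those 10, as is rank 33, which read 3.65 in clone 9, 3.74 in clone 20, 2.26 in un-transfected cells and 2.90 in mock.

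**Figure D4:**
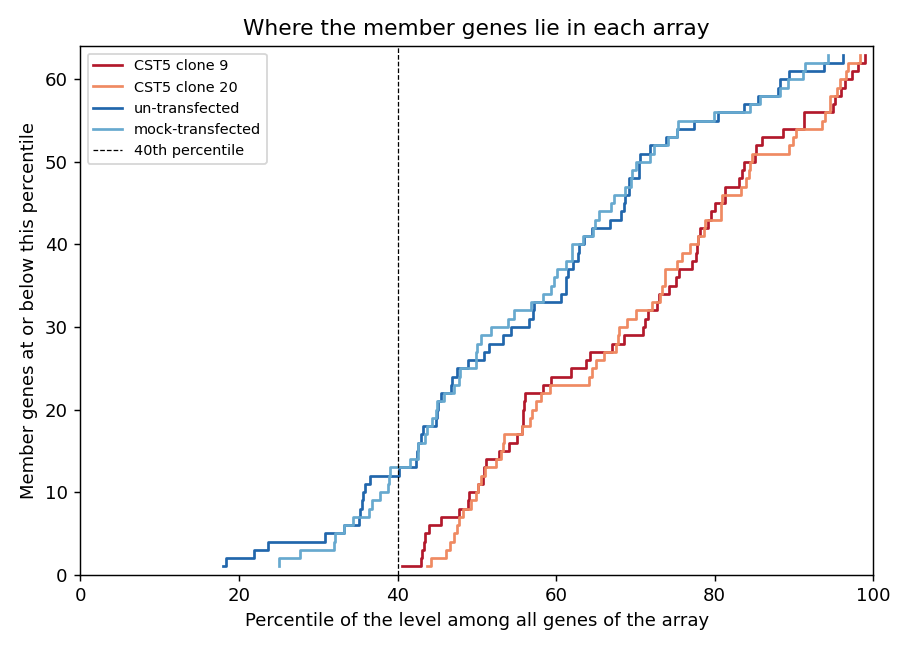
Number of members (y axis) at or below each percentile of an array (x axis), 1 line per array, with the 40th percentile dashed. Both control lines run to the left of both clone lines, as the rule requires, and they start below the 40th percentile while the clone lines start above it.

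Dim genes in general also read a little higher in the clones. By the mean percentile over all 4 arrays, the median clone-to-control difference of all tested genes was 0.11 below the 50th percentile, 0.03 between the 50th and 75th, and -0.08 at the 75th or above. In these classes there were 20, 26 and 17 members, and their median differences were 1.0, 1.06 and 0.94. The classes held 31.7%, 41.3% and 27.0% of the members, against 17.7%, 41.3% and 41.0% of the tested genes. The part of this trend in the choice of members was not tested beyond the rescaling that follows.

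Rescaling the arrays moved some members across the 1.5-fold bound. After quantile normalization, which gives all arrays the same distribution, 54 of the 63 members met the rule. Cyclic loess left 53, and setting the arrays to a common median left 44. The narrowest distance between the lower clone and the higher control was then 0.47, 0.45 and 0.49, where the rule had set it to at least 0.585 on the deposited scale. The median difference of the members was 0.98 with quantile-normalized values, 0.97 with cyclic loess and 0.91 with a common median. The common median also moved the median of all tested genes from -0.01 to -0.09.

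Members were most frequent just above the bound, which lies in the far upper tail of all tested genes. The last 4 members inside it had smallest differences of 0.597 to 0.602, and the first 4 genes outside it had 0.571 to 0.582. The member nearest to the bound, rank 63, read 4.95 and 4.84 in clones 9 and 20 and 4.25 and 4.23 in un-transfected cells and mock. The nearest gene outside read 5.08 in clone 9, 3.50 in clone 20, 2.92 in un-transfected cells and 2.86 in mock. That gene had a larger mean difference than the last members and was kept out by clone 20 alone.

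With 2 arrays a group, few genes passed the table-wide test. In the fit across all 15131 genes, 0 of the 63 members passed an adjusted p of 0.05 (limma, Benjamini-Hochberg). The share of tested genes that passed in the upward direction was 0.00661%, or 1 gene, which was 1 of the 2 genes left out. All 63 were below an unadjusted p of 0.05, as were 6.91% of the tested genes in that direction, but the rule used the same contrast and this count supports nothing.

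The 56 genes of the mirror rule gave a set of like build. Their mean difference had a median of -1.00 on the log2 scale and ran from -2.68 to -0.67. The unsigned gap between the clones had a median of 0.22, and that between the controls 0.20, against 0.21 and 0.20 in the raised set. In 7 of the 56 neither clone exceeded the 40th percentile, against 10 of 63 raised genes in which neither control did. Un-transfected cells exceeded mock in 35 of the 56 lowered genes and in 34 of the 63 raised ones.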

How the data were processed

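RNA of 4 lines was measured on Affymetrix arrays with biotin labelling, per the labels' protocols. The authors deposited 1 table of 24916 Ensembl gene identifiers by 4 arrays, read here as log2 expression from its range of 1.03 to 12.7. The log base and the array model are not stated, and how probes were background-corrected, normalized and summed into genes is not given in the labels or the table. Arrays were mapped by the sample identifiers in the header.

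Genes were filtered at each array's 40th percentile on at least 2 arrays, which removed 9785. The members follow a rule on the smallest clone-to-control difference. The members and lists were chosen with earlier results of these data known. The whole table was fitted with limma 3.58.1 in R 4.3.3 (lmFit, eBayes), 2 clones against 2 controls, and the fit was tested on simulated data. Nothing says the arrays are separate cultures of a group. The p-values therefore reflect the gap between the 2 clones and that between the 2 controls, part of which may be technical. Different lines were thus fitted as replicates of a group. Figures were drawn with matplotlib 3.10.9 and the other values computed with pandas 2.3.3.

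The rule for named genes asked for symbols of all members, values on all arrays for 30 of them, and values for the 4 genes on each side of the bound. All members have an Ensembl identifier, but only 2 are given by it, 10 by rank and the nearest gene outside without one. Without symbols, the 20 gene lists (342 symbols), the CST5 level, genomic neighbours and promoter motifs were not analysed here. Alternatives were other scales, filters and folds, other limma priors and leaving out each array.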

Additional observations from a re-analysis of the deposited data

How the results depend on the processing

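Of the alternatives, rescaling and dropping the filter kept the number of raised genes within 1.5 times of 63. It was 60 after quantile normalization, 59 after cyclic loess, 44 after median centring and 65 with no filter. The genes were not all the same: the 60 held 54 members and 6 new genes, and the 59 held 53 and 6. After median centring all 44 were members, and with no filter all 63 members remained beside 2 new genes. Raising the filter to the 60th percentile tested fewer genes and left 38. A 2-fold bound left 13 and a 3-fold bound 1, by construction. The 56 lowered genes became 98 after median centring, and 8 and 3 at 2-fold and 3-fold, bounds chosen for this set after seeing the data. Leaving out 1 array leaves fewer differences to pass, so counts rose by construction, although the filter then dropped 10 of the 63 members without either clone and 53 remained. All 63 remained without either control. The counts were 190 raised and 296 lowered without clone 9, 211 and 269 without clone 20, 175 and 129 without un-transfected cells, and 129 and 132 without mock. Members past limma's adjusted threshold numbered 0 under every alternative run. The log2 difference of ENSG00000170367 stayed between 2.34 and 3.18, and that of ENSG00000083307 between 1.64 and 2.57, the lower values being without clone 20 and without un-transfected cells. Promoter motifs in the other window were not run, since genes had no names. No paired analysis was possible because nothing in the labels numbers the lines in pairs. Dim levels had no measured background, and the number of arrays, 4, limits the precision of every value.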
